A study of Homo sapiens with 6 samples.

Results

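The genes described here regulate epithelial-mesenchymal transition (EMT) and were followed in PANC-1, a long-established line of human pancreatic carcinoma cells, after silencing of ZDHHC20, which encodes a palmitoyltransferase. The members were listed by symbol and not by a cut-off on any measured value, but earlier results of these data were known. They were ZEB1, ZEB2, SNAI1, SNAI2, TWIST1, TWIST2, GRHL2, OVOL2, ESRP1 and ESRP2. Of these 10 genes, 8 were matched in a table of 27394 genes, and TWIST1 and GRHL2 were not analysed here. All cells were of the 1 line and were infected with an shRNA construct. The sample labels give RPMI-1640 with fetal bovine serum as the medium, whereas the study's methods give DMEM for its cells. By the labels, the control group, shControl, carried a control shRNA, and the silenced group, shZDHHC20, carried an shRNA against ZDHHC20. The deposited values are headed NC and siZDHHC20 instead, and were matched to these groups by name and replicate number. Each group had 3 RNA-seq libraries. The labels did not say which shRNA sequence was used or whether the 3 replicates were separate cultures, so the p-values below measure only the spread between these samples, which may be technical.

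In EMT, epithelial cells lose their junctions and polarity and take on the traits of motile mesenchymal cells, a change that is studied in carcinoma invasion. The ZEB, Snail and Twist families are DNA-binding factors that repress E-cadherin and other epithelial genes. OVOL2 and GRHL2 are transcription factors that hold the epithelial state and repress ZEB1, whereas ESRP1 and ESRP2 are RNA-binding proteins that set the epithelial pattern of splicing. The ZEB mRNAs are also targets of the microRNAs of the miR-200 family, whose genes ZEB1 and ZEB2 repress in turn.

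The miR-200 family is shown because its binding sites are a sequence feature that sets ZEB1 and ZEB2 apart from the other regulators. The mature microRNAs are given 5′ to 3′ from RefSeq on GRCh38.p14, with the seed, bases 2 to 8, in capitals. Members that share the first seed are
hsa-miR-141-3p: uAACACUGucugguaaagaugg
hsa-miR-200a-3p: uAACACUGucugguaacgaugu
and those that share the other seed are
hsa-miR-200b-3p: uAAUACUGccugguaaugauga
hsa-miR-200c-3p: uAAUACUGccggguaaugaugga
hsa-miR-429: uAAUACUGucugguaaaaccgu
The 7-base matches to these seeds are CAGTGTT and CAGTATT, and they were searched on the transcript strand of the longest annotated 3′ UTR of each gene. ZEB1 held 9 matches in 2549 bases and ZEB2 held 9 in 5370 bases. ESRP1 had 2 matches and SNAI2 had 1, and no match was present in SNAI1, TWIST2, OVOL2 or ESRP2. At least 1 match was found in 31.3% of the 14486 genes that averaged 1 normalized count or more, and at least 9 in 0.0414%. Among genes with a UTR within 20% of the length of that of ZEB1, 47.5% had at least 1 match and 0.0505% had at least 9. The same shares were 71.2% and 0.203% for genes near the UTR length of ZEB2. The genes near these lengths numbered 1982 for ZEB1 and 987 for ZEB2. ZEB1 and ZEB2 themselves were not removed from any of these shares. The first match of each kind is printed with the bases before it, with the match in capitals, from GENCODE 29 transcripts on GRCh38.
ZEB1, plus strand, chr10:31527618-31527639: attgttttatcttatCAGTATT
ZEB1, plus strand, chr10:31528031-31528052: caaaatcatcagaatCAGTGTT
ZEB2, minus strand, chr2:144389053-144389074: cgcactaccatacatCAGTATT
ZEB2, minus strand, chr2:144389237-144389258: tgcaaaaattttgtaCAGTGTT
A match describes letters in the transcript and is not evidence of binding. The genes of these microRNAs were not analysed here, so the levels of the microRNAs themselves are not known from these libraries.

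The values were normalized counts, that is, reads per gene divided by 1 size factor per library. Between 16575546 and 18441049 reads per library were recovered from them. ZDHHC20 fell from 1991 ± 46.9 (SD, n = 3) to 848 ± 61.0 normalized counts (n = 3), or 42.6% of control, so the labels and the targeted gene pointed the same way. The library of shZDHHC20 replicate 2 stood apart. Over 4136 well-expressed genes, the SD of its log2 differences from the other shZDHHC20 libraries was 0.178 and 0.198, against 0.0674 to 0.0722 for every other pair within a group, and 4.01% of its counts were mitochondrial against 5.28% to 5.52%. The fold changes of the regulators and the counts of the lists are therefore also given without that library. Ductal and epithelial markers were present at a summed 78925 to 86826 normalized counts per library, and keratin genes accounted for most of the sum. Acinar and endocrine markers reached at most 8.45 and 6.36, with 1 of 6 and 1 of 5 listed genes in the table. Leukocyte markers, 3 of 5 in the table, summed to 26.0 to 37.4 in shControl and 24.4 to 45.1 in shZDHHC20, and endothelial markers, 3 of 4 in the table, to 40.0 to 55.6 and 32.9 to 47.7. Fibroblast markers, 5 of 7 in the table and mostly COL1A1, summed to 3969 to 4042 in shControl and to 3195 to 3479 in shZDHHC20. In a bulk library, fewer cells expressing a gene and less RNA per cell cannot be told apart.

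After ZDHHC20 silencing, the transcription factor ZEB1 was lower and the splicing factor ESRP2 was higher, both by less than 1.5-fold, and the other 6 EMT regulators did not pass the test. At an adjusted p under 0.05 in limma, 1 of the 8 regulators was higher, 1 was lower and 6 did not pass, against a background of 11.5% of the 22189 genes tested (2541 genes, 1024 higher and 1517 lower). The share of genes past the threshold rose with their level. It was 19.96% at a mean of 300 to 1000 normalized counts, where ZEB1 and ESRP2 lie, 27.8% above 1000, 14.3% at 100 to 300, 5.44% at 20 to 100 and 0.350% at 1 to 20, so the count of 2 among 8 says nothing particular about the regulators as a group. None of the regulators passed a p under 0.01 with a fold of at least 1.5, the criteria that the study names for its gene lists, which were read here as an unadjusted p and which 2.45% of genes passed. The 2 groups did not overlap for 5 regulators, ZEB1, SNAI2, OVOL2, ESRP1 and ESRP2, where 28.6% of all genes tested had no overlap.

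**Figure D1:**
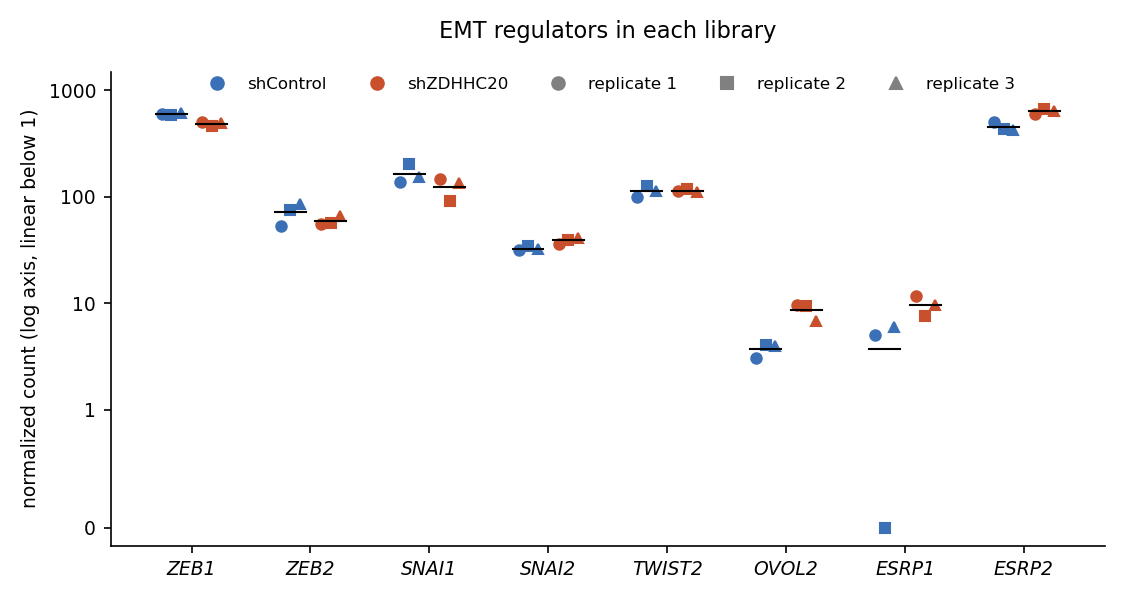
Normalized counts of the 8 EMT regulators in each library, on a log axis that is linear below 1, with shControl in blue, shZDHHC20 in orange and a bar at each group mean. ZEB1 was lower in all 3 shZDHHC20 libraries than in any shControl library and ESRP2 was higher, while ZEB2, SNAI1 and TWIST2 overlapped.

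ZEB1 (ENSG00000148516, chr10:31318495-31529814, plus strand, GRCh38) encodes a zinc finger and homeodomain factor that represses E-cadherin. Its normalized counts were 594, 583 and 608 in shControl and 499, 466 and 496 in shZDHHC20, each in the order of replicates 1 to 3, as for every gene below. Every shZDHHC20 library was below every shControl library. The mean fell from 595 ± 12.6 (SD, n = 3) to 487 ± 18.3 (n = 3), or 81.9% of control. The log2 fold change was -0.29 with an SE of 0.0723, a 95% interval from -0.45 to -0.13 and an adjusted p of 0.0200 in limma. The count tests on the recovered reads gave adjusted p-values of 0.0184 in edgeR and 0.0190 in DESeq2. The size of the change moved little when single libraries were left out, from -0.31 to -0.26. The call did not hold in every such fit: the limma adjusted p was 0.0873, 0.0675 and 0.103 without shControl replicates 1, 2 and 3, 0.0566 without shZDHHC20 replicate 1, 0.0435 without replicate 3, and 0.0112 without replicate 2, the library that stood apart. It was 0.103 with all libraries when the variances were moderated without a mean-variance trend.

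The antisense gene ZEB1-AS1 shares 366 exonic bases with ZEB1. The libraries were strand-specific, but whether strand was used in counting was not stated, so reads in the shared bases cannot be assigned with certainty. ZEB1-AS1 had 59.6, 59.3 and 41.1 normalized counts in shControl and 58.3, 73.3 and 58.7 in shZDHHC20. The groups overlapped, at a log2 fold change of 0.26 and an adjusted p of 0.501 in limma, and at 0.15 and 0.713 without shZDHHC20 replicate 2. ZEB1-AS1 was the only gene of 10 in the list of microRNA and antisense genes of the ZEB loop that was tested, and the other 9 were not analysed here.

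ZEB2 (ENSG00000169554, chr2:144364364-144524583, minus strand), the paralog of ZEB1 with a similar repressor function, was present at a much lower level. It had 53.6, 75.3 and 86.1 normalized counts in shControl and 55.1, 56.3 and 65.4 in shZDHHC20. The groups overlapped, and shControl replicate 1 was the lowest of all 6 libraries. The means were 71.7 ± 16.6 and 59.0 ± 5.64 (SD, n = 3 each), with a log2 fold change of -0.26, a 95% interval from -0.70 to 0.19 and an adjusted p of 0.5004 in limma. When shZDHHC20 replicate 2 was left out, the log2 fold change was -0.23 and the adjusted p 0.557. The estimate moved more with the shControl libraries, to -0.45 without replicate 1 and -0.11 without replicate 3, with adjusted p-values in limma of 0.245 and 0.838. The log2 ratio of ZEB1 to ZEB2 was 3.08 ± 0.344 in shControl and 3.05 ± 0.129 in shZDHHC20, a difference of -0.032 (exact permutation test, two-sided, p = 0.9). With 3 libraries against 3, this test cannot give a p below 0.1. The difference turned to 0.16 without shControl replicate 1 and to 0.032 without shZDHHC20 replicate 3. The antisense gene ZEB2-AS1 overlaps ZEB2 in exons and was not analysed here.

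SNAI1 (ENSG00000124216, chr20:49982999-49988886, plus strand) encodes Snail, a zinc finger repressor of E-cadherin. Its normalized counts were 136, 202 and 152 in shControl and 146, 92.0 and 134 in shZDHHC20. The groups overlapped, and the highest value was that of shControl replicate 2 and the lowest that of shZDHHC20 replicate 2. The means were 163 ± 34.2 and 124 ± 28.4, with a log2 fold change of -0.41 and a 95% interval from -0.81 to -0.0021. The unadjusted p was 0.0490 and the adjusted p 0.207 in limma, which did not pass. The value depended on replicate 2 of both groups: the log2 fold change was -0.20 and the adjusted p 0.437 without shZDHHC20 replicate 2, and they were -0.24 and 0.553 without shControl replicate 2.

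SNAI2 (ENSG00000019549, chromosome 8) encodes Slug, which belongs to the same family as Snail. It had 31.3, 34.1 and 32.0 normalized counts in shControl and 36.0, 39.4 and 41.4 in shZDHHC20. The groups did not overlap, with all 3 shZDHHC20 libraries above shControl. The means were 32.5 ± 1.47 and 39.0 ± 2.70, with a log2 fold change of 0.26, a 95% interval from -0.24 to 0.75 and an adjusted p of 0.548 in limma. The adjusted p was 0.583 without shZDHHC20 replicate 2. SNAI1 and SNAI2 thus had fitted changes of opposite sign, neither past the threshold. The log2 ratio of SNAI1 to SNAI2 was 2.31 ± 0.227 in shControl and 1.64 ± 0.401 in shZDHHC20, without overlap, and the difference of -0.66 had an exact permutation p of 0.1, the smallest that this design allows, and an adjusted p of 0.3 over the 3 pairs of paralogs. That difference was -0.45 without shZDHHC20 replicate 2.

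TWIST2 (ENSG00000233608, chr2:238848032-238910543, plus strand) encodes a basic helix-loop-helix factor. It had 99.0, 126 and 112 normalized counts in shControl and 113, 118 and 112 in shZDHHC20, and the shZDHHC20 values lay within the range of shControl. The means were 112 ± 13.3 and 114 ± 3.47, with a log2 fold change of 0.035 and an adjusted p of 0.919 in limma. The 95% interval ran from -0.27 to 0.34, so a change within these bounds was not excluded. The log2 fold change was 0.010 without shZDHHC20 replicate 2, and its sign turned without shControl replicate 1, at -0.052.

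**Figure D2:**
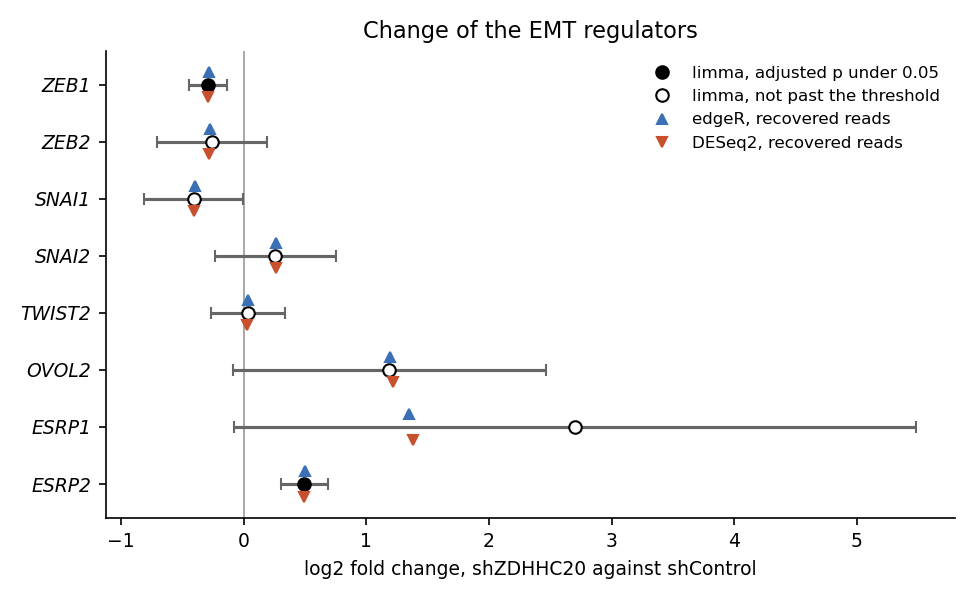
Log2 fold changes of the 8 EMT regulators in shZDHHC20 against shControl. Circles are limma estimates with 95% intervals, filled where the adjusted p was under 0.05, and triangles are edgeR and DESeq2 estimates on the recovered reads. The interval was clear of 0 for ZEB1 and ESRP2, reached nearly to 0 for SNAI1, and was widest for ESRP1, whose limma estimate of 2.70 lay far from the edgeR estimate of 1.35.

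On the epithelial side, ESRP2 was the regulator with the smallest p. ESRP2 (ENSG00000103067, chr16:68229111-68238102, minus strand, GRCh38) had 504, 432 and 419.5 normalized counts in shControl and 595, 673 and 639 in shZDHHC20. All 3 shZDHHC20 libraries were above all 3 shControl libraries, and shControl replicate 1 was the highest of its group. The mean rose from 452 ± 45.8 (SD, n = 3) to 636 ± 39.5 (n = 3), or 141% of control. The log2 fold change was 0.50 with an SE of 0.0879, a 95% interval from 0.31 to 0.68 and an adjusted p of 0.00258 in limma. It held in edgeR and DESeq2, with adjusted p-values of 0.00114 and 6.8e-05, and in each of the 6 fits without 1 library, with log2 fold changes from 0.44 to 0.58. The call did not hold in limma without a mean-variance trend, where the adjusted p was 0.1005. In the fit without shZDHHC20 replicate 2, the log2 fold change was 0.45 and the adjusted p 0.00153.

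ESRP2 shares 149 exonic bases with NFATC3 on the opposite strand. NFATC3 had a log2 fold change of -0.13 with an adjusted p of 0.355 in limma, at 455 ± 25.2 normalized counts in shControl and 414 ± 17.7 in shZDHHC20, and -0.12 with 0.346 without shZDHHC20 replicate 2. The rise of ESRP2 thus did not go with a rise in the overlapping gene.

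**Figure D3:**
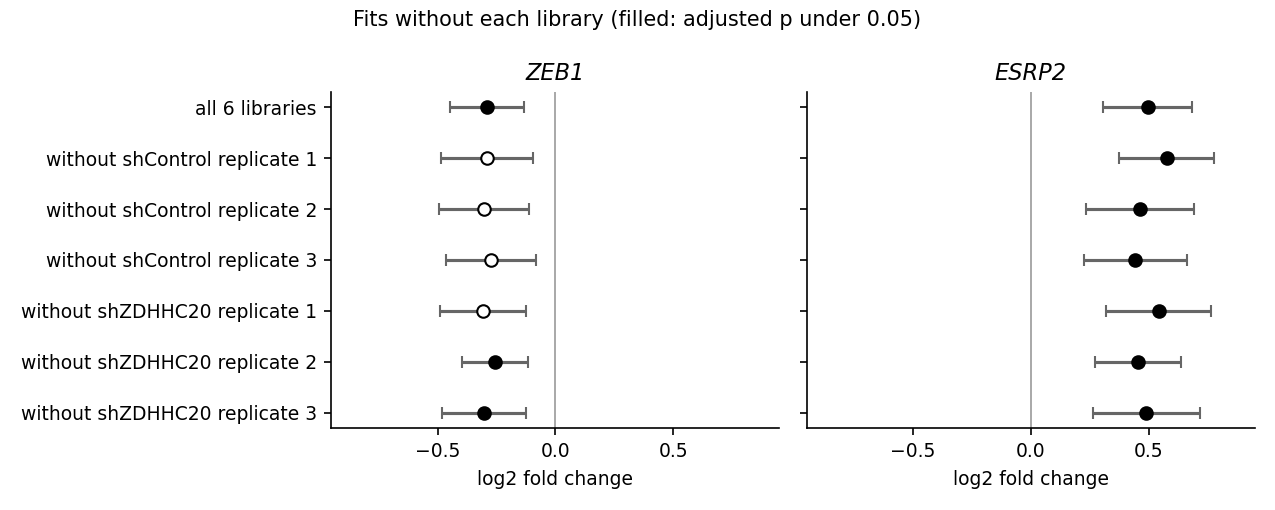
Log2 fold changes with 95% intervals of ZEB1 and ESRP2 in limma with all 6 libraries and without each library in turn, filled where the adjusted p was under 0.05. ESRP2 stayed past the threshold in all 6 reduced fits, and ZEB1 in 2 of 6, with every ZEB1 estimate between -0.31 and -0.26.

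ESRP1 (ENSG00000104413, chromosome 8), the paralog of ESRP2, was close to the limit of detection. It had 5.05, 0 and 6.01 normalized counts in shControl and 11.7, 7.51 and 9.62 in shZDHHC20, which are 5, 0 and 6 reads against 11, 8 and 10. The groups did not overlap, and shControl replicate 2 had no read, which allows up to 3.01 normalized counts there, for counting error only. In all, 11 reads in shControl stood against 29 in shZDHHC20. The fitted log2 fold change of 2.70 (95% interval from -0.075 to 5.48, limma adjusted p = 0.222) rested on the value added before taking logs and on the library at 0, and it ran from 0.77 to 3.81 over the alternatives. The estimate was 1.35 in edgeR, with an adjusted p of 0.279. The limma estimate was 2.87 and the adjusted p 0.216 without shZDHHC20 replicate 2, and it was 0.77 with 0.506 without shControl replicate 2. Without that control library, the difference in the log2 ratio of ESRP1 to ESRP2 shrank from 2.21 (exact permutation p = 0.2) to 0.30.

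OVOL2 (ENSG00000125850, chr20:17956979-18059188, minus strand), a zinc finger repressor of ZEB1, was also scarce. Its normalized counts were 3.03, 4.02 and 4.005 in shControl and 9.54, 9.39 and 6.74 in shZDHHC20, or 11 reads against 26 in all. The groups did not overlap, and every shZDHHC20 library was above every shControl library. The means were 3.68 ± 0.566 and 8.56 ± 1.58, with a log2 fold change of 1.19, a 95% interval from -0.087 to 2.46 and an adjusted p of 0.245 in limma. The edgeR adjusted p was 0.249, and DESeq2 gave none for OVOL2 or ESRP1. Leaving out shZDHHC20 replicate 2, the log2 fold change was 1.11 and the adjusted p 0.339. OVOL2 shares 59 exonic bases with SNX5 on the same strand. SNX5 had 2053 ± 30.8 normalized counts in shControl and 2134 ± 110 in shZDHHC20, and its log2 fold change was 0.055 (limma adjusted p = 0.602), or 0.098 (0.0938) without shZDHHC20 replicate 2. The part of SNX5 reads in the OVOL2 values was not tested. At this depth the differences seen in OVOL2 and ESRP1 did not pass the test over all genes, although 30 of 8578 genes at a mean of 1 to 20 did.

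Levels were compared between genes as normalized counts per kilobase of annotated exon. In shControl, SNAI1 was the highest at 97.0 ± 20.3, followed by ESRP2 at 81.2 ± 8.23, ZEB1 at 68.8 ± 1.46 and TWIST2 at 59.8 ± 7.06 (SD, n = 3). Only SNAI1 and ESRP2 overlapped among neighbours in the order, and their ranks were exchanged when the longest transcript was used in place of all exons. SNAI2 at 9.58, ZEB2 at 2.86, OVOL2 at 1.69 and ESRP1 at 0.756 followed, and these neighbours did not overlap in shControl. SNAI1 thus lay at the 68.7th percentile of genes tested and ESRP1 at the 7.39th. In shZDHHC20 the order began with ESRP2 at 114 ± 7.09, then SNAI1 at 73.6 ± 16.8, TWIST2 at 60.9 ± 1.85 and ZEB1 at 56.3 ± 2.12 per kilobase. The SNAI1 libraries, from 54.6 to 86.8, overlapped those of TWIST2 and ZEB1, so these ranks were not separated. With the longest transcript as the length, TWIST2 at 81.5 and ZEB1 at 77.7 were above SNAI1 at 73.6. Without shZDHHC20 replicate 2, SNAI1 was at 83.0 per kilobase of annotated exon and ESRP2 at 111. PANC-1 cells of both groups therefore held mRNA of the EMT-inducing factors ZEB1, SNAI1 and TWIST2 beside that of the epithelial splicing factor ESRP2.

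The genes whose pattern over the 6 libraries was most like that of ESRP2 were ATG4A, ZFYVE21 and CCDC71L, among the 10908 genes that averaged 100 normalized counts or more. The root mean square difference between the log2 values, each taken relative to its own shControl mean, was 0.0618, 0.0661 and 0.0677. These genes had log2 fold changes of 0.46, 0.49 and 0.48.

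Other transcription factors that can induce EMT were lower or did not pass. Of 18 genes listed, 15 were tested, 0 were higher, 5 were lower and 10 did not pass, with a median log2 fold change of -0.24 against 0.013 for all genes tested. The calls made up 33.3% of the list. Of the 13 that averaged 100 normalized counts or more, 5 were called, against 21.7% of all genes at that level. This list and those below were chosen with earlier results of these data known, so their shares of calls are a description only. ETS1, an invasion-linked ETS factor, fell from 2950 ± 33.0 to 1932 ± 103 normalized counts (log2 fold change -0.61, limma adjusted p = 1.47e-05). FOSL1, an AP-1 subunit, changed by -0.36, RUNX2 by -0.35, SOX9 by -0.33 and FOXC2 by -0.24 on the log2 scale, with adjusted p-values in limma between 0.000639 and 0.0449. SOX9 is also a ductal marker. In the fit without shZDHHC20 replicate 2, 6 genes were lower, and 3 were lower without shControl replicate 1, shControl replicate 3 or shZDHHC20 replicate 3. Without a mean-variance trend in limma, 1 was lower.

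Other transcription factors of the epithelial state did not move in 1 direction. Of 20 genes listed, 16 were tested, 1 was higher, 1 was lower and 14 did not pass, with a median log2 fold change of -0.17. The calls were 12.5% of those tested, against 11.5% of all genes. Of the 6 that averaged 100 normalized counts or more, 2 were called, against 21.7% of all genes at that level. ELF3, an ETS factor of epithelia, rose from 1138 ± 39.0 to 1621 ± 125 normalized counts (log2 fold change 0.51, limma adjusted p = 0.00027). GRHL3, a grainyhead factor of the same family as GRHL2, fell from 1223 ± 51.7 to 931 ± 19.0 (log2 fold change -0.39, limma adjusted p = 0.00103). The counts were 1 higher and 2 lower without shZDHHC20 replicate 2.

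Among partners and corepressors that the EMT factors recruit, or that restrain them, all 25 genes were tested, 1 was higher, 7 were lower and 17 did not pass. The median log2 fold change was -0.074. The 8 calls were 32.0% of the list. Of the 23 that averaged 100 normalized counts or more, 8 were called, against 21.7% of all genes at that level. In this list 16 of the 25 averaged above 1000, where 27.8% of all genes passed. The largest fall among these calls was that of ID2, an inhibitor of basic helix-loop-helix factors, from 146 ± 9.81 to 74.0 ± 3.64 normalized counts (log2 fold change -0.98, limma adjusted p = 0.000536). EHMT2, a histone methyltransferase, changed by -0.51, LOXL2, which binds Snail, by -0.40, ID3 by -0.25 and AJUBA, a LIM-domain corepressor of Snail, by -0.23 on the log2 scale. HDAC1, a histone deacetylase, rose by 0.21 on that scale, with an adjusted p of 0.0083 in limma. The count of 8 calls depended on the libraries: it was 3 without any 1 of the shControl libraries, 4 without shZDHHC20 replicate 1, 5 without replicate 3 and 14 without replicate 2. It was 2 without a mean-variance trend.

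Splicing regulators other than the ESRP genes gave 1 gene higher, 3 lower and 6 not past the threshold of 10 tested, with a median log2 fold change of -0.0034. The calls were 40.0% of those tested. Of the 10, 8 averaged above 1000 normalized counts, and all 4 calls were among these, where 27.8% of all genes passed. QKI, an RNA-binding protein that sets mesenchymal splicing, fell from 4668 ± 183 to 3725 ± 385 normalized counts (log2 fold change -0.33, limma adjusted p = 0.00678). CELF1 changed by 0.17, HNRNPM by -0.17 and MBNL2 by -0.23 on the log2 scale, with adjusted p-values in limma of 0.0246, 0.0335 and 0.0418. The 4 calls became 7 without shZDHHC20 replicate 2, 1 without shZDHHC20 replicate 1 or shControl replicate 1, and 0 without shControl replicate 2 or 3, or without a mean-variance trend.

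Genes of the epithelial and mesenchymal states were then counted. Of 35 epithelial genes listed as repressed by ZEB and Snail factors, 31 were tested, 12 were higher, 2 were lower and 17 did not pass. The median log2 fold change was 0.33. Whether ZEB or Snail factors acted on these genes in PANC-1 cells was not tested. The calls were 45.2% of the list. Of the 25 that averaged 100 normalized counts or more, 12 were called, against 21.7% of all genes at that level. The lists were chosen with earlier results of these data known, so these shares describe them and are not an independent test. The 6 with the smallest p were EPCAM, CDH1, which encodes E-cadherin, the desmosomal gene PKP3, the protease inhibitor gene SPINT1, PPL and CDS1, at log2 fold changes of 2.89, 1.13, 0.94, 0.90, 0.55 and 0.73. The 2 that were lower, named here after their values were seen, were CGN at -0.46 and SPINT2 at -0.23. OCLN, CLDN1, CLDN4, DSP and JUP, also named after their values were seen, did not pass and lay between -0.014 and 0.064. The counts were 12 higher and 2 lower without shZDHHC20 replicate 2 as well, 10 to 11 higher and 0 lower without any 1 of the other libraries, and 7 higher and 0 lower without a mean-variance trend. Of 26 mesenchymal genes, 21 were tested, 1 was higher, 8 were lower and 12 did not pass, with a median log2 fold change of -0.19. The calls were 42.9% of that list, and 9 of the 14 genes that averaged 100 or more were called. Those lower with the smallest p were MMP2, a matrix metalloprotease, AXL, a receptor kinase, COL6A1, ITGA5, COL1A1 and SPARC, at -0.51, -0.44, -0.68, -0.28, -0.27 and -0.41, and TNC, named here after its values were seen, was the 1 that was higher, at 0.62. VIM and CDH2, also named after their values were seen, did not pass, at 0.028 and 0.050. Without shZDHHC20 replicate 2, 2 were higher and 9 lower. VIM was 1 of those 2, with an adjusted p of 0.000583 in limma. The 9 calls in all became 6 without shControl replicate 1, shControl replicate 2 or shZDHHC20 replicate 1, and 3 without a mean-variance trend. COL1A1 made up most of the fibroblast marker sum given above, and the part of that marker sum in these results was not tested. The sum of ductal and epithelial markers was 84640 to 86826 normalized counts in shControl and 78925 to 79846 in shZDHHC20, so it was lower in the group where most called epithelial genes were higher, and its part in the result was not tested.

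**Figure D4:**
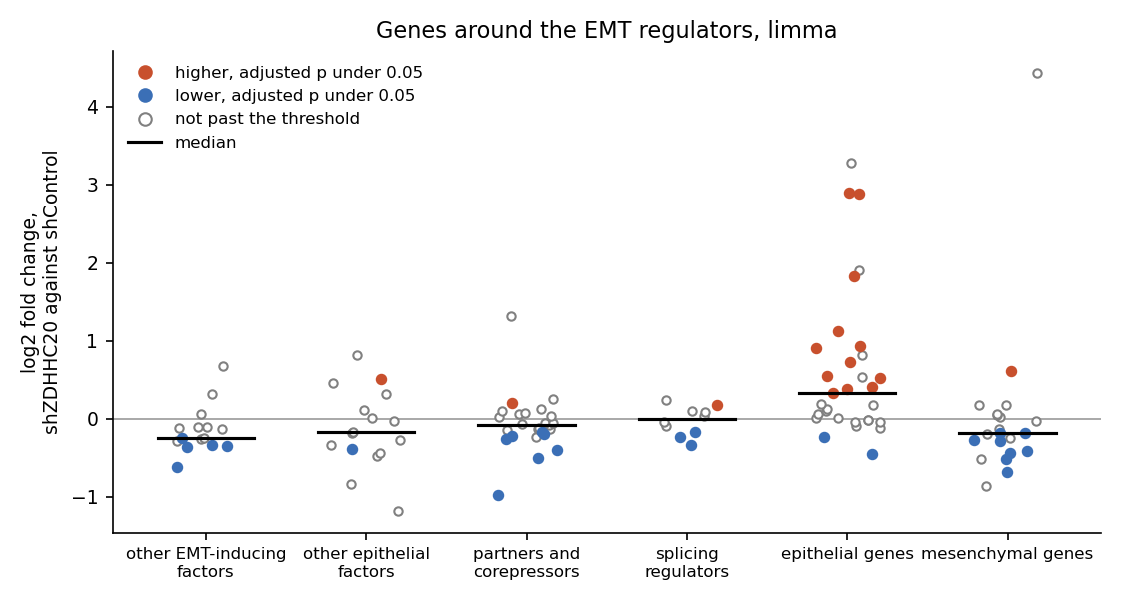
Log2 fold changes in limma of the tested genes of 6 lists, with a black line at each median. Orange points were higher and blue points lower at an adjusted p under 0.05, and open points did not pass. The epithelial genes had 12 orange points, 2 blue points and a median of 0.33. The other EMT-inducing factors had 5 blue points, no orange point and a median of -0.24.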

How the data were processed

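RNA-seq of 6 PANC-1 libraries was analysed from the authors' deposited table. The authors deposited 1 normalized signal value per gene and library, in a table named as FPKM. All values of each library were whole multiples of its smallest value, within 0.01, so they were read as counts divided by a size factor, and reads were recovered from them. The design had assumed FPKM, and its test was kept. The submitters' processing notes name hg19, and the aligner, counter and annotation are not given in the sources used here. Positions, transcripts and lengths came from GENCODE 29 (GRCh38), not converted. Gene names matched 27175 of 27394 identifiers.

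Values were log2-transformed after adding 0.1, genes with a mean of at least 1 were kept, and groups were compared with limma 3.58.1 (R 4.3.3), with a mean-variance trend, with two-sided p-values and Benjamini-Hochberg adjustment across every tested gene. On this scale the fold change of a low gene depends on the added 0.1, most of all where a library is at 0. Ratios between paralogs were compared with exact permutation tests in scipy 1.17.1. Alternatives were edgeR 4.0.16 and DESeq2 1.42.0 on recovered reads, pseudocounts of 1 and 0.01, other filters, scalings and moderation, the removal of single libraries, and the replicate number as a block. From each list, up to 6 genes with the smallest adjusted p under 0.05 were named, and for the member with the highest mean and the member with the smallest adjusted p, the 3 genes of most similar pattern. Members and lists were chosen with earlier results of these data known. Scripts were tested on simulated data.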

Additional observations from a re-analysis of the deposited data

How the results depend on the processing

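Over the 8 regulators and 17 alternatives, 129 of 136 combinations kept their direction and, where an adjusted p was given, their side of the threshold. DESeq2 gave no adjusted p for OVOL2 or ESRP1. Of the rest, 6 lost the call, 5 for ZEB1 and 1 for ESRP2, and 1 turned its sign. Without a mean-variance trend in limma, 351 genes passed in place of 2541 and 0 regulators (limma adjusted p of 0.103 for ZEB1 and 0.1005 for ESRP2), 1 regulator, OVOL2, met the study's criteria in place of 0, and the lists of other EMT-inducing factors, other epithelial factors, partners, splicing regulators, epithelial genes and mesenchymal genes had 1, 0, 2, 0, 7 and 3 calls. Leaving out 1 library at a time gave 1233 to 4454 genes, the most without shZDHHC20 replicate 2, and 1 to 2 regulators, and 3 to 6, 2 to 3, 3 to 14, 0 to 7, 10 to 14 and 6 to 11 calls in those lists. In these fits TWIST2 ranged from -0.052 to 0.12, and the difference in the log2 ratio of ZEB1 to ZEB2 from -0.16 to 0.16, at 0.16 without shControl replicate 1 and 0.032 without shZDHHC20 replicate 3.

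The replicate numbers are shared by the groups, but no pairing of the libraries was seen. Deviations of same-numbered libraries from their group means correlated at -0.0948, -0.156 and -0.0771 over 10908 genes. Whether same-numbered libraries shared a culture or a batch was not tested. With a replicate block, 1942 genes passed, with ZEB1 at an adjusted p of 0.0470 and ESRP2 at 0.00611 in limma, and the splicing regulators had 1 call in place of 4. Depth limited what could be seen of OVOL2 and ESRP1, with 11 reads each in shControl.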
